A study of Homo sapiens with 9 samples.

Results

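GBP1, GBP2, GBP3, GBP4 and GBP5 are guanylate-binding proteins, and their mRNAs were followed in THP-1, an established human acute monocytic leukemia cell line, after knockdown of RASSF2 (a Ras association domain family member that binds the Hippo pathway kinases). The members were taken by gene symbol: 5 of the 18522 genes in the deposited table, all 5 of them among the 15465 genes that passed the filter on low values (a normalized read count of at least 10 in at least 3 libraries). They were proposed with their levels in all 9 libraries already known. Their levels and differences are therefore given as a description, with standard errors and no test.

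Cells were transduced with lentivirus carrying 1 of 2 shRNAs against RASSF2 (the groups shRASSF2-1 and shRASSF2-2) or a control shRNA (shCTRL), and all groups, controls included, received 96 h of puromycin selection at 1 ug/mL. RNA was extracted per condition from viable cells, and poly(A) RNA was sequenced in 3 libraries per group. The labels do not say that libraries of 1 group are separate cultures, so the p-values reflect the spread among these samples alone, and that spread may be technical. In RNA from a whole culture, fewer cells of a kind and less RNA per cell cannot be told apart.

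Guanylate-binding proteins are large GTPases of the dynamin superfamily whose genes are switched on by interferons, most strongly by interferon gamma acting through its receptor and the kinases JAK1 and JAK2, with the transcription factor IRF1 among the activators. In infected cells GBP1 binds lipopolysaccharide on Gram-negative bacteria and starts a coat that GBP2, GBP3 and GBP4 join, which brings caspase-4 to the bacterium. GBP1, GBP2 and GBP5 carry a C-terminal prenylation signal that anchors them in membranes, and GBP3 and GBP4 lack it. GBP2 and GBP5 also lower the activity of the protease furin, which viruses use to mature their envelope proteins.

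The 5 genes lie in 1 cluster on chromosome 1 (GRCh38, chr1:89006680-89272860, 266 kb), in the order GBP3, GBP1, GBP2, GBP4 and GBP5, with GBP7 between GBP2 and GBP4. Promoter sequences, from RefSeq on GRCh38.p14, were at hand for 3 of the 5 members and cover 250 bases before to 50 bases after the annotated start. They were searched on both strands for the core of the interferon-stimulated response element (ISRE, written as GAAA, any 2 bases, GAAA), which IRF factors bind, and for the gamma-activated site (GAS, TTCNNNGAA). The 30-base stretches that hold the ISRE core are shown because all 3 promoters have it in the same orientation; the capitals mark the core, which reads on the opposite strand.
GBP1: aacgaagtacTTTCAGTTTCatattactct
GBP3: aaagaagtacTTTCAGTTTCattaggctct
GBP4: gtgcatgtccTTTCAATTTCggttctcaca
These are chr1:89065316-89065345 for GBP1, chr1:89022845-89022874 for GBP3 and chr1:89198927-89198956 for GBP4, all on the minus strand. The core lies 127 to 118 bases before the annotated start of GBP1, at bases 3 to 12 of the GBP3 transcript, and across the annotated start of GBP4. Of 35116 promoter windows of the same length, 3.57% hold this core. The windows of GBP1 and GBP3 align over 144 bases with 81.2% identity. The GAS pattern was found in the GBP3 window, at TTCCTTGAA, 15 to 7 bases before the start, and 7.66% of all windows hold it. GBP3 also has the AP-1 pattern TGANTCA, as TGAGTCA, 23 to 17 bases before its start (7.71% of all windows), clear of the GAS match. The TATA pattern TATAAA was found in none of the 3 windows (11.5% of all windows). A match is a description of the letters; binding was not measured.

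The 250 bases before the annotated start of GBP1, the member with the largest difference between groups, are chr1:89065209-89065458 on the minus strand, with the ISRE core in capitals.
GBP1 promoter: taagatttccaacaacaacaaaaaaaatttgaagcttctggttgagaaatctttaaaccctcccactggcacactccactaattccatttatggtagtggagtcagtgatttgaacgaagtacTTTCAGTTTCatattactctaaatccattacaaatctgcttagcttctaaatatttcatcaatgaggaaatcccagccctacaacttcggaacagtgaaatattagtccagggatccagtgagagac

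RASSF2 itself lay below the control range in all 6 knockdown libraries, at a mean normalized read count of 164 with shRASSF2-1, 311 with shRASSF2-2 and 1064 in shCTRL. Recovered reads ran from 13.3 M to 20.1 M per library, and in all 9 libraries 100% of the deposited values were whole multiples of 1 read within 0.001. The sample descriptions end in a code that was read here as the flow cell. By this code, 2 control libraries came from a separate flow cell and 7 libraries from a common one. Control replicate 1 stood apart, with log2 values that correlated across genes at 0.966 and 0.957 with the other controls, against 0.986 between those. Results are therefore also given without control replicate 1 or from the 7 libraries that shared a flow cell, 1 of them a control. The summed level of the 12 monocytic markers was 24884 to 28043 with shRASSF2-1, 48788 to 50560 with shRASSF2-2 and 26782 to 34489 in shCTRL. Of the 12, 1 averaged under 10 with shRASSF2-1, 2 with shRASSF2-2 and 0 in shCTRL. CD33, LYZ, SPI1 and CSF1R were present in every library. By limma, 3 were higher and 4 lower with shRASSF2-1 (26.9% and 29.2% of all genes tested). With shRASSF2-2, 5 were higher and 6 lower (31.8% and 29.1%), so the higher sum does not hold marker by marker. The median log2 difference was 0.23 with shRASSF2-1 and -0.21 with shRASSF2-2. Of 6 T and NK cell markers in the table, CD3E, CD3G, CD8A and GNLY averaged under 10 in every group; the sum of the 6 was 40.7 to 47.2 with shRASSF2-1, 44.0 to 56.7 with shRASSF2-2 and 122 to 134 in shCTRL. The 3 B cell markers summed to 243 to 257 with shRASSF2-1, 65.8 to 99.9 with shRASSF2-2 and 141 to 220.1 in shCTRL. The 6 connective tissue and vessel markers summed to 4173 to 4931 with shRASSF2-1, 4236 to 4793 with shRASSF2-2 and 5346 to 7162 in shCTRL. Most of the sum was PECAM1, which monocytes also express. Gene by gene, most of the 5 markers tested went the other way. For shRASSF2-1, limma called 3 of them higher, 1 lower, at a median log2 difference of 2.02. For shRASSF2-2 it called 4 higher, 1 lower, at a median of 2.84. A flow cell term in the fit left 1 higher call per shRNA. The 6 epithelial markers summed to 400.1 to 2253 with shRASSF2-1, 1551 to 1953 with shRASSF2-2 and 20.6 to 719.8 in shCTRL, the last value being control replicate 3. The part of these markers in the GBP results was not tested.

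GBP1 showed the widest range of the family. It had normalized read counts of 19.1, 15.0 and 13.6 with shRASSF2-1, 6323, 5728 and 6789 with shRASSF2-2, and 26.6, 20.8 and 25.3 in shCTRL. The 3 groups did not overlap, with shRASSF2-1 lowest and shRASSF2-2 far above both. Behind these values stood 20, 17 and 15 reads with shRASSF2-1, 5577, 5048 and 6178 with shRASSF2-2 and 22, 25 and 27 in shCTRL, so the low groups rest on few reads. The log2 difference, on the scale of log2(value + 1), was -0.58 (SE 0.166) for shRASSF2-1 against shCTRL and 7.96 (SE 0.166) for shRASSF2-2 against shCTRL. As a ratio of means, shRASSF2-2 was 259-fold above shCTRL, and the lowest shRASSF2-2 library was 215-fold above the highest control. Of all members, GBP1 is the one whose protein nucleates the coat on bacterial lipopolysaccharide.

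**Figure D1:**
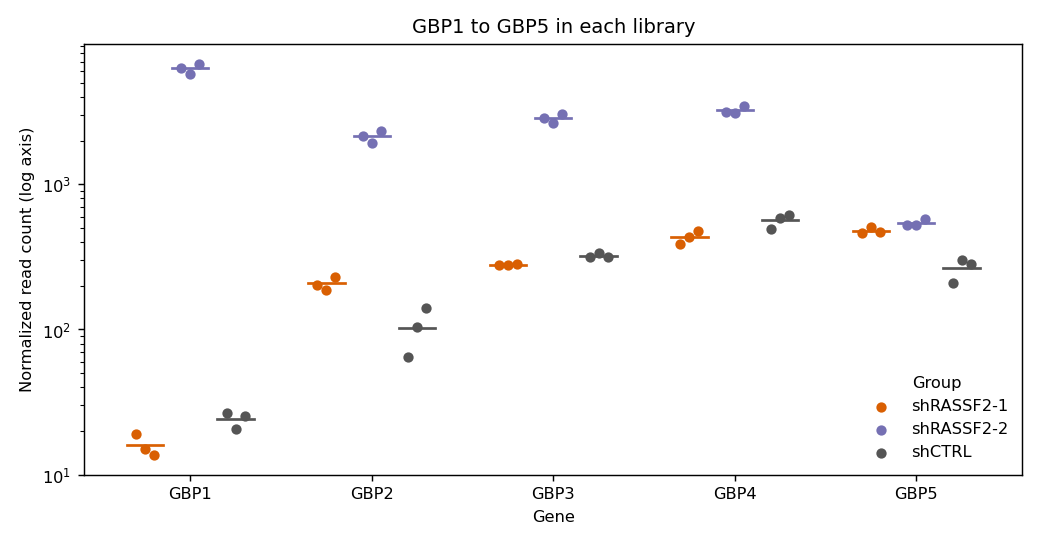
Normalized read count (log axis) of GBP1 to GBP5, with 1 point per library and a bar at the mean of each group (n = 3). GBP1 spans the widest range, with 13.6 to 19.1 in shRASSF2-1, 5728 to 6789 in shRASSF2-2 and 20.8 to 26.6 in shCTRL, while GBP5 lies between 460 and 579 in both knockdown groups and between 210.5 and 299.8 in shCTRL.

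GBP2 was higher with both shRNAs, to unequal degrees. It had 204, 188 and 230.4 with shRASSF2-1, 2160, 1930 and 2324 with shRASSF2-2, and 64.1, 105 and 141 in shCTRL. No library of one group fell inside the range of another, although the controls spread 2.19-fold, with replicate 1 lowest and replicate 3, the control on the shared flow cell, highest. The log2 difference was 1.07 (SE 0.233) for shRASSF2-1 against shCTRL and 4.43 (SE 0.233) for shRASSF2-2 against shCTRL. Within the shared flow cell the difference was 0.55 with shRASSF2-1 and 3.91 with shRASSF2-2, and without control replicate 1 it was 0.76 with shRASSF2-1 and 4.12 with shRASSF2-2.

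GBP3 and GBP4, the members without a prenylation signal, followed the same course as each other. GBP1, which carries that signal, moved in the same directions. GBP3 had 279.1, 279.4 and 281.2 with shRASSF2-1, 2875, 2648 and 3042 with shRASSF2-2, and 313, 335 and 318 in shCTRL. GBP4, which takes part in the recruitment of caspase-4, had 391, 436 and 474 with shRASSF2-1, 3137, 3096 and 3463 with shRASSF2-2, and 492, 587 and 617 in shCTRL. In both genes the shRASSF2-1 libraries lay just under the lowest control and the shRASSF2-2 libraries well above the highest. For shRASSF2-1 against shCTRL the log2 difference was -0.20 (SE 0.0850) for GBP3 and -0.38 (SE 0.110) for GBP4. For shRASSF2-2 against shCTRL it was 3.14 (SE 0.0850) for GBP3 and 2.52 (SE 0.110) for GBP4, or 8.87-fold and 5.72-fold as ratios of means.

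GBP5, linked to the NLRP3 inflammasome and to the block of furin, differed least between the shRNAs of the 5 members. It had 460.1, 506 and 472 with shRASSF2-1, 526, 524 and 579 with shRASSF2-2, and 210.5, 299.8 and 284 in shCTRL. Every knockdown library was above every control, and the shRASSF2-2 libraries started just above the highest shRASSF2-1 library. The log2 difference was 0.87 (SE 0.135) for shRASSF2-1 against shCTRL and 1.05 (SE 0.135) for shRASSF2-2 against shCTRL. Without control replicate 1, the lowest control, the difference was 0.71 with shRASSF2-1 and 0.89 with shRASSF2-2.

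Set directly against each other, shRASSF2-2 exceeded shRASSF2-1 in all members but by very different amounts. The log2 difference was 8.55 for GBP1, 3.36 for GBP2, 3.34 for GBP3, 2.90 for GBP4 and 0.18 (SE 0.135) for GBP5. The median of the 5 members was -0.20 for shRASSF2-1 against shCTRL, 3.14 for shRASSF2-2 against shCTRL and 3.34 for shRASSF2-2 against shRASSF2-1, beside medians over all genes tested of 0.02, 0.04 and -0.03. The first 2 comparisons share the control libraries.

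**Figure D2:**
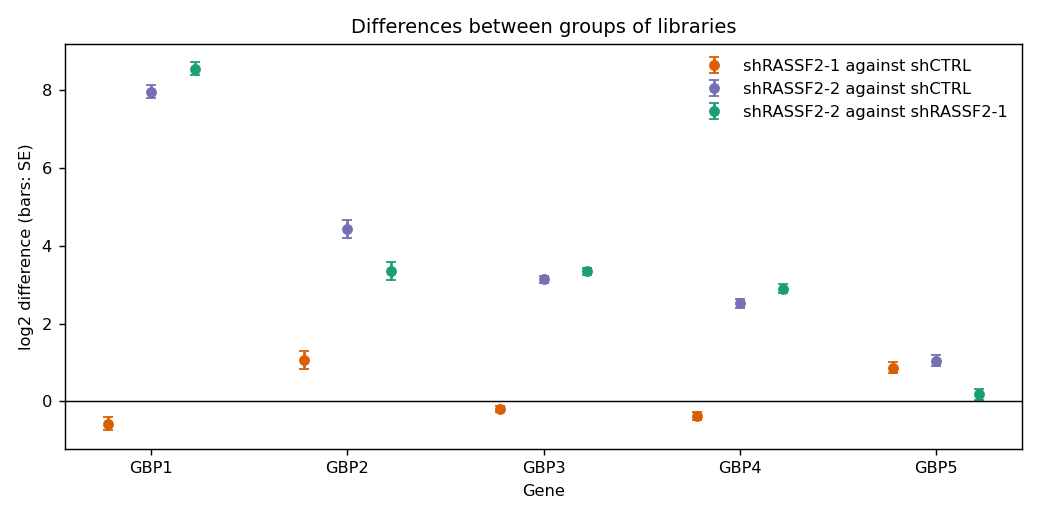
log2 difference (y axis, log2 of normalized read count + 1) of each member in the 3 comparisons, with SE bars from the fit over all 9 libraries. The values for shRASSF2-2 against shCTRL decline from 7.96 for GBP1 to 1.05 for GBP5, while those for shRASSF2-1 against shCTRL lie between -0.58 and 1.07.

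With shRASSF2-1, the libraries of 2 members lay above all controls and those of 3 below, where 29.9% and 31.3% of all genes tested were so placed. With shRASSF2-2, all 5 members lay above all controls (33.9% of all genes), and all 5 lay above all shRASSF2-1 libraries (36.8% of all genes). For 3 members the shRASSF2-1 libraries lay below and the shRASSF2-2 libraries above every control, as for 6.45% of all genes tested. Nothing is read from these counts, since the members were chosen on the same values. The small differences with shRASSF2-1 depended on the scaling between libraries. When values were scaled by total reads in place of the deposited size factors, the median of all genes moved to 0.39 for shRASSF2-1 against shCTRL, and of the genes called, 72.9% were higher, against 48.0% with the deposited scaling. GBP3 then had 0.18, GBP4 -0.00 and GBP1 -0.22, which relative to the median of all genes was -0.22, -0.40 and -0.62, and GBP2 and GBP5 had 1.44 and 1.25. For shRASSF2-2 against shRASSF2-1 the same scaling put the median of all genes at -0.41 and GBP5 at -0.21, and 28.4% of the genes called were higher, against 51.3%. For shRASSF2-2 against shCTRL it moved no member by more than the spread between replicates.

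The authors' own comparison ordered the members differently. In the authors' deposited table, which holds a single knockdown against control comparison whose libraries are not named, the log2 fold change was 1.73 for GBP1, 2.65 for GBP2, 1.77 for GBP3, 1.38 for GBP4 and 0.93 for GBP5. In that table GBP2 led and GBP1 stood behind GBP3, whereas GBP1 led for shRASSF2-2 against shCTRL and was lowest for shRASSF2-1 against shCTRL in the fit by shRNA. The sources used here do not say how the deposited fold change was computed, so the orders may rest on unlike measures.

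The family as a whole took 106 to 115 RPM (recovered reads scaled to the library total) with shRASSF2-1, 828 to 971 with shRASSF2-2 and 65.6 to 86.9 in shCTRL. Its summed normalized read count was 1416 ± 59.4 with shRASSF2-1, 15048 ± 1135 with shRASSF2-2 and 1279 ± 151 in shCTRL (SD, n = 3 each), and the shRASSF2-1 and shCTRL libraries overlapped in this sum. Levels were compared between genes per kb of the longest coding GENCODE v29 transcript. On that scale GBP1 was the lowest member with shRASSF2-1 (5.24 ± 0.930 normalized reads per kb), the highest with shRASSF2-2 (2069 ± 175) and the lowest in shCTRL (7.98 ± 1.01). GBP1 made up 0.876% to 1.30% of the summed level per kb with shRASSF2-1, 43.0% to 43.7% with shRASSF2-2 and 1.68% to 2.70% in shCTRL. GBP5 made up 45.8% to 49.9% with shRASSF2-1, 5.49% to 5.94% with shRASSF2-2 and 32.2% to 36.5% in shCTRL. Per kb of coding sequence, GBP5 made up 33.1% to 36.6% with shRASSF2-1, 3.60% to 3.87% with shRASSF2-2 and 19.9% to 23.2% in shCTRL.

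**Figure D3:**
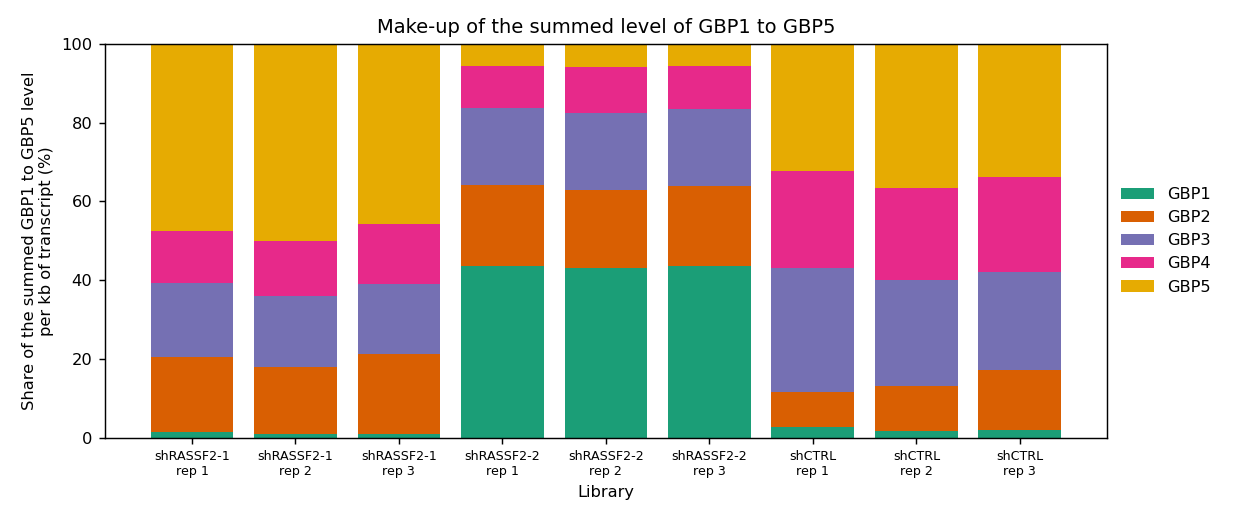
Share of each member (%) in the summed level of GBP1 to GBP5 per kb of transcript, with 1 stacked bar per library. GBP5 is the largest part of each bar in shRASSF2-1 (45.8% to 49.9%) and GBP1 the largest in shRASSF2-2 (43.0% to 43.7%).

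The order of the middle members, and in shCTRL the leading one, depended on the length used. Per kb of transcript the order with shRASSF2-1 was GBP5, GBP2, GBP3, GBP4 and GBP1, with shRASSF2-2 GBP1, GBP2, GBP3, GBP4 and GBP5, and in shCTRL GBP5, GBP3, GBP4, GBP2 and GBP1. The libraries of GBP2 and GBP3 overlapped in both knockdown groups, as did those of GBP5 and GBP3 in shCTRL. Per kb of coding sequence, GBP4, whose long transcript is 31.3% coding, stood second with both shRNAs and first in shCTRL, where GBP5 came after GBP4 and GBP3. With shRASSF2-2 the libraries of GBP4 and GBP3 overlapped on that scale. GBP1 was last with shRASSF2-1 and in shCTRL and first with shRASSF2-2 by either length, and GBP5 was first with shRASSF2-1 and last with shRASSF2-2 by either length.

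The members are close relatives, so counts could be shared between them. The coding sequences of GBP1 and GBP3 were 91.6% identical over 1770 aligned bases, and those of GBP2 were 82.9% identical to GBP3 and 82.4% to GBP1. Of the 50-base stretches in the coding sequence, 23.0% of those of GBP1 also occurred in a transcript of another GBP gene, against 7.20% for GBP3, 3.89% for GBP2, 1.02% for GBP4 and 0% for GBP5. For GBP1 most of these were shared with the pseudogene GBP1P1 (18.8%). The sources used here do not say how reads that match several genes were counted, so the values of GBP1, GBP3 and GBP1P1 are uncertain to that extent. GBP1P1 had 8.57, 0.884 and 4.54 with shRASSF2-1, 391, 342 and 454 with shRASSF2-2 and 31.4, 15.8 and 28.1 in shCTRL. It fell with shRASSF2-1 (log2 difference -2.44, limma adjusted p = 0.00232) and rose with shRASSF2-2 (3.97, limma adjusted p = 6.54e-05). The low groups of GBP1P1 rest on few reads, at 9, 1 and 5 with shRASSF2-1 and 26, 19 and 30 in shCTRL. GBP6 and GBP7 were not analysed here.

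The genes around the cluster moved in both directions. Of 11 listed neighbours, 1 rose and 4 fell with shRASSF2-1 (26.9% and 29.2% of all genes tested), and 5 rose and 3 fell with shRASSF2-2 (31.8% and 29.1%), with median log2 differences of -0.22 with shRASSF2-1 and 0.17 with shRASSF2-2. Without control replicate 1 the shRASSF2-1 counts were 1 and 8, within the shared flow cell 2 and 7, and after scaling by total reads 3 and 3. KYAT3, a kynurenine aminotransferase gene next to GBP3, had -0.07 with shRASSF2-1 and rose by 0.68 with shRASSF2-2 (limma adjusted p = 0.00552), a call lost with flow cell as a covariate. RBMXL1, which lies within KYAT3, fell by 0.36 with shRASSF2-1 and 0.39 with shRASSF2-2, the shRASSF2-1 value being 0.01 after scaling by total reads. LRRC8B, a subunit of volume-regulated anion channels on the other side of the cluster, fell by 0.62 with shRASSF2-1 and had 0.17 with shRASSF2-2. Among the 11, GTF2B, a general transcription factor, rose most with shRASSF2-2, by 1.21 (limma adjusted p = 0.00131), and CDC7, a kinase of DNA replication, fell most, by 1.92.

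**Figure D4:**
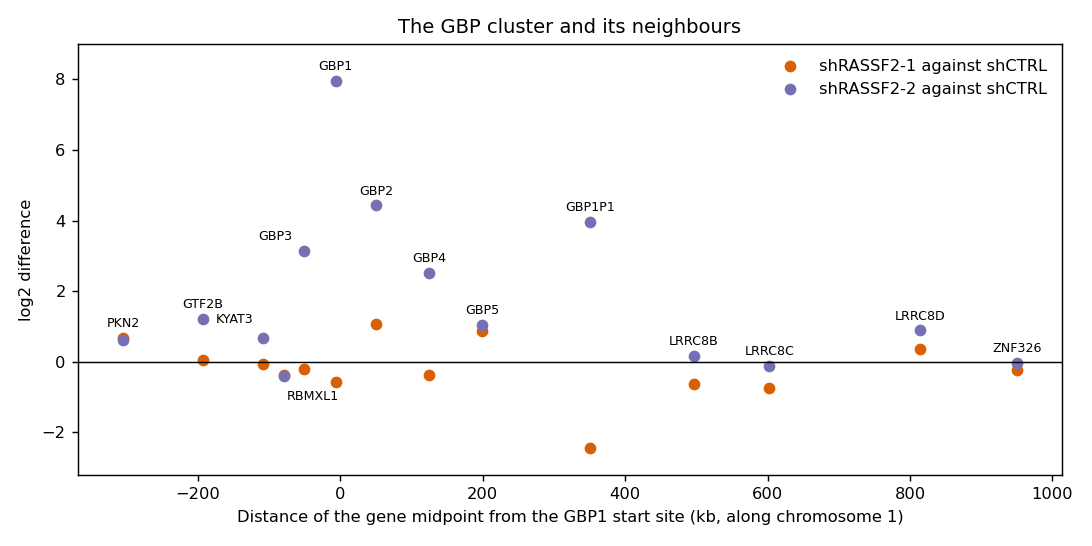
log2 difference of each shRNA against shCTRL (y axis) for GBP genes and neighbours, by the distance of the gene midpoint from the GBP1 start site (x axis, kb). The members reach 1.05 to 7.96 with shRASSF2-2, while the 8 plotted neighbours outside the GBP family lie between -0.39 and 1.21.

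The interferon receptor and signalling list held more lower than higher genes with shRASSF2-1 and more higher than lower genes with shRASSF2-2. Gene differences here are log2 differences against shCTRL by limma, called at an adjusted p under 0.05. Of 19 receptor and signalling genes tested, 4 were higher and 11 lower in shRASSF2-1 (26.9% and 29.2% of all genes tested). In shRASSF2-2, 15 were higher and 1 lower (31.8% and 29.1% of all genes tested). The median log2 difference was -0.31 with shRASSF2-1 and 0.96 with shRASSF2-2. After scaling by total reads the shRASSF2-1 counts were 7 up and 5 down. IFNGR1, the ligand-binding chain of the interferon gamma receptor, had normalized read counts of 1702 ± 106 with shRASSF2-1, 4631 ± 267 with shRASSF2-2 and 767 ± 195 in shCTRL (SD, n = 3 each), and rose 2.22-fold with shRASSF2-1 (limma adjusted p = 0.000158) and 6.04-fold with shRASSF2-2 (limma adjusted p = 2.95e-07), as ratios of means. IFNGR2, the second chain, rose by 0.89 with shRASSF2-1 and 1.27 with shRASSF2-2, but the shRASSF2-1 call was lost with edgeR (0.81, edgeR adjusted p = 0.0616) and when control replicate 2 or 3 or any shRASSF2-1 library was left out. IFNG was not analysed here.

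IRF9, a DNA-binding interferon regulatory factor, fell by 0.31 with shRASSF2-1 (0.06 after scaling by total reads) and rose by 1.26 with shRASSF2-2. The kinase JAK2 fell by 0.43 with shRASSF2-1, a call lost after scaling by total reads (-0.05), and rose by 1.30 with shRASSF2-2. JAK1 had -0.27 with shRASSF2-1, which was 0.11 after scaling by total reads and lost its call in a fit with a flow cell term. With shRASSF2-2 it had 0.19, a call lost in 13 of 21 alternative fits, among them edgeR, TMM scaling and every fit that left out 1 library other than control replicate 1.

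The IRF factors split. IRF1, the activator of many interferon gamma targets, had 558 ± 36.9 with shRASSF2-1, 2455 ± 168 with shRASSF2-2 and 518 ± 23.8 in shCTRL (SD, n = 3 each). It rose with shRASSF2-2 (2.24) and was not called with shRASSF2-1 (0.11, limma adjusted p = 0.34; 0.48 and called after scaling by total reads), and the difference between the shRNAs was 2.14 (limma adjusted p = 2.05e-08). IRF2, which binds the same sites, rose by 1.90 with shRASSF2-2 and had 0.12 with shRASSF2-1, a value that was -0.15 within the shared flow cell and 0.50, and called, after scaling by total reads. IRF8, the myeloid IRF, fell by 2.16 with shRASSF2-1 and 2.73 with shRASSF2-2. SOCS1, the feedback inhibitor of the receptor kinases, had 0.85 with shRASSF2-2 (limma adjusted p = 0.0235), a call lost within the shared flow cell, with flow cell as a covariate, or without control replicate 2 or 3 or shRASSF2-2 replicate 1 or 3.

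**Figure D5:**
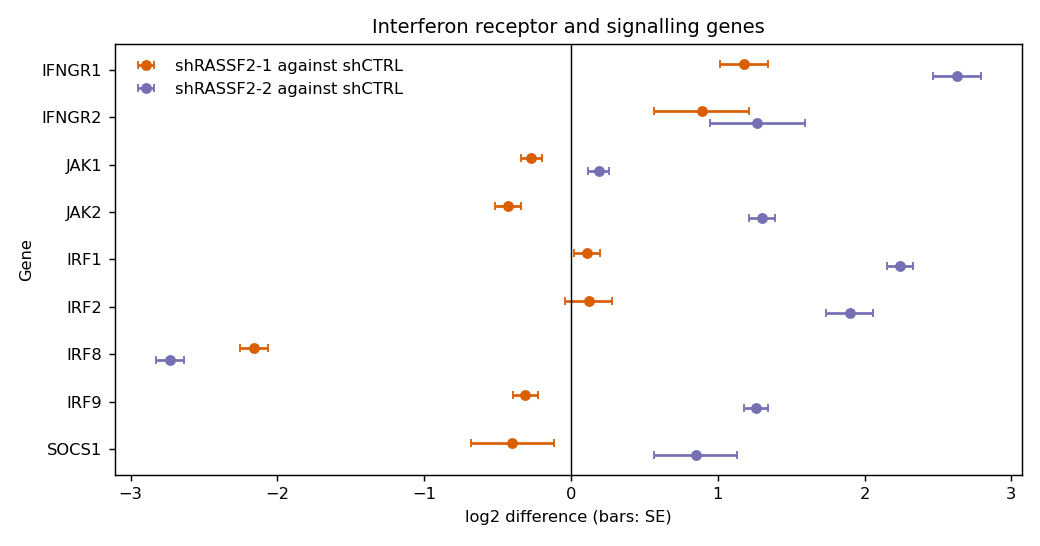
log2 difference of each shRNA against shCTRL (x axis, bars SE) for the interferon receptor and signalling genes. IFNGR1 and IFNGR2 lie right of 0 with both shRNAs, IRF8 lies left of 0 with both, and JAK2 has -0.43 with shRASSF2-1 and 1.30 with shRASSF2-2.

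Interferon-induced genes outside the family could be set beside it. Of 26 genes that lean to interferon gamma, 2 were higher and 16 lower in shRASSF2-1 by limma (26.9% and 29.2% of all genes tested). In shRASSF2-2, 21 were higher and 0 lower (31.8% and 29.1% of all genes tested). This 0 became 1 with edgeR, with DESeq2 and at an unadjusted p under 0.05. The medians were -0.81 in shRASSF2-1 and 1.86 in shRASSF2-2. CXCL10, a chemokine, had 65.8 ± 4.37 with shRASSF2-1, 21972 ± 3060 with shRASSF2-2 and 266 ± 90.7 in shCTRL (SD, n = 3 each), or log2 differences of -1.95 with shRASSF2-1 and 6.41 with shRASSF2-2. CXCL11, its relative, had -1.78 with shRASSF2-1 and 6.07 with shRASSF2-2, and CD274, the checkpoint ligand PD-L1, -0.75 with shRASSF2-1 and 4.82 with shRASSF2-2. The shRASSF2-1 call of CD274 was lost after scaling by total reads (-0.38, limma adjusted p = 0.163) and in the fit of the 2 groups alone (limma adjusted p = 0.0707). ICAM1, an adhesion receptor, rose by 2.20 with shRASSF2-1 and 3.59 with shRASSF2-2, as GBP2 and GBP5 were higher with both.

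Of 36 genes that lean to type I interferon, 0 rose and 34 fell with shRASSF2-1 by limma (26.9% and 29.2% of all genes tested). This 0 was also 0 by edgeR, by DESeq2 and at an unadjusted p under 0.05. With shRASSF2-2, 36 rose (31.8% of all genes tested). The medians were -2.13 in shRASSF2-1 and 1.98 in shRASSF2-2. IFIT3 had -3.14 with shRASSF2-1 and 3.28 with shRASSF2-2. RSAD2, the antiviral enzyme viperin, had -1.78 with shRASSF2-1 and 3.86 with shRASSF2-2, and EPSTI1 had -2.55 with shRASSF2-1 and 2.76 with shRASSF2-2. With shRASSF2-1, the median of -2.13 over all 36 stood beside -0.20 over the 5 members, whose values ran from -0.58 to 1.07. After scaling by total reads 33 of the 36 were lower, and the median of the members was 0.18. The difference between the list and the members was not tested.

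Of the other interferon-inducible or dynamin-like GTPases, 11 were tested. In shRASSF2-1, 2 were higher and 7 lower (26.9% and 29.2% of all genes tested). In shRASSF2-2, 5 were higher and 4 lower (31.8% and 29.1% of all genes tested). MX1 and MX2, antiviral dynamin-like GTPases, had -3.61 and -2.45 with shRASSF2-1 and 1.17 and 1.70 with shRASSF2-2. EHD4, a membrane-remodelling ATPase, had -2.39 with shRASSF2-1 and 1.65 with shRASSF2-2, and its relative EHD1 0.66 with shRASSF2-1 and -1.11 with shRASSF2-2.

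Genes that act with GBP proteins were also measured. In the caspase-4 and inflammasome list of 14 genes, 6 were higher and 3 lower in shRASSF2-1 (26.9% and 29.2% of all genes tested). In shRASSF2-2, 11 were higher and 1 lower (31.8% and 29.1% of all genes tested). The medians were 0.08 in shRASSF2-1 and 2.13 in shRASSF2-2. Without control replicate 1 the shRASSF2-1 counts were 6 higher and 5 lower. LY96, the lipopolysaccharide-binding partner of TLR4, had 36.4 ± 5.30 with shRASSF2-1, 335 ± 53.6 with shRASSF2-2 and 3.10 ± 1.61 in shCTRL (SD, n = 3 each), or log2 differences of 3.25 with shRASSF2-1 and 6.42 with shRASSF2-2. NLRC4, a sensor of bacterial flagellin, rose by 1.23 with shRASSF2-1 and 2.37 with shRASSF2-2. NINJ1, which ruptures the membrane of dying cells, rose by 0.64 with shRASSF2-1 and 1.89 with shRASSF2-2. PYCARD, the inflammasome adaptor, fell by 1.90 with shRASSF2-1 and 0.52 with shRASSF2-2.

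Of the 8 prenylation enzymes, 3 rose and 2 fell with each shRNA. Among all genes tested, the share called higher was 26.9% for shRASSF2-1, 31.8% for shRASSF2-2. The share called lower was 29.2% for the first shRNA, 29.1% for the second. Whether the 8 enzymes depart from these shares was not tested. In a fit with a flow cell term 0 enzymes rose with shRASSF2-1 and 1 with shRASSF2-2. ICMT, which methylates prenylated proteins, fell by 1.11 with shRASSF2-1 and 1.12 with shRASSF2-2. FDPS, which makes farnesyl pyrophosphate, fell by 1.31 with shRASSF2-1 and 1.35 with shRASSF2-2. Among 11 genes of GBP control and vacuole recognition, 1 was higher and 7 lower in shRASSF2-1 (26.9% and 29.2% of all genes tested). In shRASSF2-2, 7 were higher and 0 lower by limma (31.8% and 29.1% of all genes tested). This 0 was also 0 by edgeR, by DESeq2 and at an unadjusted p under 0.05. Without control replicate 1 the shRASSF2-2 counts were 7 higher and 3 lower. After scaling by total reads the shRASSF2-1 counts were 3 higher and 3 lower. PIM1, the kinase that holds GBP1 in the cytosol, had 70.8 ± 5.38 with shRASSF2-1, 699 ± 69.0 with shRASSF2-2 and 137 ± 6.32 in shCTRL (SD, n = 3 each), or log2 differences of -0.94 with shRASSF2-1 and 2.34 with shRASSF2-2. LGALS3, galectin-3, rose by 0.54 with shRASSF2-1 (a call lost with flow cell as a covariate) and 2.63 with shRASSF2-2.

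The genes with the pattern most like the family were found by Pearson correlation with the mean standardised log2 profile of the 5 members over the 9 libraries, among 12196 genes with a mean of at least 50. The 9 points fall into 3 groups, so many genes come close: 665 genes reached 0.95 and 65 reached 0.99. The 8 highest were ADAMDEC1, a secreted metalloprotease of macrophages (0.999), the transcription factor TFEC (0.999), TMED5 (0.999), ZNF385A (0.999), NUPR1 (0.998), HIST1H2BD (0.998), RECK (0.998) and RNF19A (0.998). ADAMDEC1 had normalized read counts of 61.8 ± 1.89 with shRASSF2-1, 11670 ± 960 with shRASSF2-2 and 20.5 ± 9.48 in shCTRL (SD, n = 3 each). In all 8 genes the shRASSF2-1 libraries lay above every control, as in GBP2 and GBP5 and in 29.9% of all genes tested. In GBP1, GBP3 and GBP4 they lay below every control, so the 8 differ from these members on that side. The members themselves correlated with their own mean profile at 0.995 for GBP2, 0.973 for GBP3, 0.968 for GBP1, 0.960 for GBP4 and 0.741 for GBP5.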

How the data were processed

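Tools named in the submitters' processing notes are DESeq2 1.18.1, featureCounts 1.6.2, HISAT2 2.1.0 and Picard, with the build hg38 and neither role nor order; annotation and strand are not given in the sources used here. The deposited values per library are a normalized signal: counts divided by a size factor, from which whole reads were recovered. The same deposited table holds, for each gene, the authors' log2 fold change with its adjusted p-value. For 195 genes with 0.0694% of reads no symbol is given; 22 symbols turned into dates were restored by Entrez identifier.

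Values were tested as log2(value + 1), with a pseudocount of 1, by limma-trend 3.58.1 in R 4.3.3, over 15465 genes and 9 libraries with group as the only term and a Benjamini-Hochberg FDR under 0.05. On the recovered reads edgeR 4.0.16 called 8729, 9386 and 9108 genes in the 3 comparisons, and limma 8669, 9417 and 9050. DESeq2 1.42.0 was a further alternative. Scripts were tested on simulated data.

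The members, gene lists and tests were chosen with earlier results of these data known. Named genes are the members, RASSF2, GBP1P1, fixed signalling genes and neighbours from the list. They also hold up to 6 genes per list with the smallest p, and the 8 most alike genes. Marker lists are given as sums, those of monocytic and of connective tissue and vessel markers also as counts. The markers named there were chosen after their values were seen. Sequences and positions are from RefSeq (GRCh38.p14) and transcripts from GENCODE v29. One named signalling gene is not reported here.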

Additional observations from a re-analysis of the deposited data

Results flagged for a closer look

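For 3 members and a pseudogene, every shRASSF2-1 library lay below and every shRASSF2-2 library above all controls with the deposited scaling, a placement that 6.45% of all genes tested had. The log2 difference between shRASSF2-2 and shRASSF2-1 was 8.55 for GBP1, 3.34 for GBP3, 2.90 for GBP4 and 6.41 for GBP1P1. For the members this difference was not tested, because they were chosen on these values. No test is given here for GBP1P1 either, because it was flagged by the placement of the same values and may share reads with GBP1. After scaling by total reads, the difference of shRASSF2-1 against shCTRL was 0.18 for GBP3, -0.00 for GBP4 and -0.22 for GBP1, so the lower side does not hold under both scalings for GBP3 and GBP4.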

How the results depend on the processing

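Of 315 values of the members under alternative settings, 300 moved by less than the spread between replicates, 13 by more, and 2 changed sign. The 300 include values that could not move. Another filter, a replicate block, a fit of the 2 groups alone or leaving out a library of a group not compared leaves a difference unchanged. For shRASSF2-2 against shRASSF2-1 the flow cell settings do so too. The count is therefore no measure of robustness. Scaling by total reads put the median of the members at 0.18 for shRASSF2-1 against shCTRL and 2.95 for shRASSF2-2 against shRASSF2-1, GBP3 at 0.18 in the first and GBP5 at -0.21 in the second. For shRASSF2-1 against shCTRL it also changed the sign of JAK1 (0.11), IRF9 (0.06), LGALS8 (0.17), KYAT3 (0.31), RBMXL1 (0.01) and ZNF326 (0.15), and for shRASSF2-2 against shRASSF2-1 that of IFNGR2 (-0.01). With flow cell as a covariate, and within the shared flow cell, the sign changed for IRF2 (-0.15), GGPS1 (-0.16) and GTF2B (-0.36) with shRASSF2-1 and for FNTA (-0.05) and CALCOCO2 (0.06) with shRASSF2-2. GTF2B with shRASSF2-1 was -0.01 with edgeR and with DESeq2. For these scaling and flow cell settings the cause was not tested.

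Leaving out 1 library at a time gave -0.07 to 0.26 for IRF2, -0.16 to 0.14 for GGPS1, -0.29 to 0.26 for GTF2B and -0.29 to 0.05 for KYAT3 with shRASSF2-1, and -0.02 to 0.26 for FNTA, -0.07 to 0.05 for CALCOCO2 and -0.25 to 0.09 for ZNF326 with shRASSF2-2. Over 66 named genes, 2853 of 3003 alternative values kept their direction and their side of the threshold, 94 lost the call, 25 gained one and 31 changed sign. Same-numbered libraries did not deviate together (9 pairs, correlations of -0.156 to 0.12, 1 of them over 0.1; 2 of 9 libraries correlated best with their own number), and a replicate block gave 8289, 9126 and 8754 genes called, against 8669, 9417 and 9050 without it. Depth limits GBP1 in shRASSF2-1 and shCTRL, at 15 to 27 reads per library.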
